A study of Mus musculus with 9 samples.

Results

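The comparison described here is cigarette smoke (CS) against fresh air in mouse lung, and it covers 6 of the 9 arrays of the series. Its members are the 3 arrays titled as 6 months of CS and the 3 titled as 6 months of air, called CS 1 to 3 and air 1 to 3 after their replicate numbers. The animals were male C57BL/6J mice, 12 weeks old when exposure began; they carried no engineered allele in the labels, and both groups were housed for 6 months under 3.5% CS or fresh air. Total RNA from whole lung was labelled with Cy3 and hybridised singly, so each array holds 1 RNA sample and no common reference. The other 3 arrays, from mice exposed to an IQOS aerosol (a heated tobacco product), entered the model only as a further source for its estimate of the spread. The labels do not say that each array is a separate mouse, so each p-value reflects only how these samples spread, which may be technical in part. Whole-tissue RNA does not separate fewer cells of a type from less RNA per cell, and this holds for every change below.

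Cigarette smoke carries particles, oxidants and polycyclic aromatic compounds into the airways and alveoli, where epithelial cells and resident macrophages meet them first. Epithelium under such stress is known to release chemokines, interleukins and growth factors of the epidermal growth factor (EGF) family, which draw in neutrophils and monocytes and act on the epithelium itself. The connective tissue around the alveoli holds fibrillar collagen and elastic fibres made mainly by fibroblasts and smooth muscle cells, and loss of this scaffold is the hallmark of emphysema.

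The arrays were alike in signal but not in outlier spots. The 75th percentile of signal was 973.3 to 1079 units, between 64.29% and 67.01% of probes were well above background, and 0 spots were saturated. Outlier spots, which were left out, numbered 85 and 96 on air 1 and air 2, 181 on air 3 and 211 to 220 on the CS arrays, and their part in the changes was not tested. Probe values correlated at 0.9871 to 0.9916 between air arrays, at 0.9851 to 0.987 between CS arrays and at 0.9819 to 0.9858 across the groups. All 13 markers of lung cell types (Sftpc, Sftpb, Sftpd, Ager, Aqp5, Scgb1a1, Scgb3a2, Foxj1, Cdh5, Pecam1, Acta2, Col1a1 and Ptprc) were well above background on all 6 arrays. All 6 arrays lay on 1 slide, with air 1 and air 2 in array row 1 and air 3 and CS 1 to 3 in row 2.

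CS and air arrays differed in a wide range of genes, more of them by small than by large amounts. Here a signal is a multiple of its array's 75th percentile, a change is the log2 ratio of CS over air with its standard error from limma (3 arrays per group), and a gene rose or fell when its Benjamini-Hochberg adjusted p over 37258 probes was under 0.05. By that rule 3840 probes were called, 10.3% of those tested, 1725 of them higher and 2115 lower. Each of 16593 genes was read from its brightest probe, and 1946 were called (11.7%), 930 higher (5.6%) and 1016 lower (6.12%). Other tested probes of a named gene were not always called, and several of these are given with the gene. The rises were the larger changes, with a median size of 0.62 against 0.44 for the falls, and 245 genes rose but 93 fell at least 2-fold. The CS signals lay above all air signals in 17.2% of genes and below them all in 21%, which is the background for any statement here that the groups did not overlap.

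The number of calls depended on single arrays. In what follows, without air 1 means that this array was left out and the model fitted again. Of the 1946 genes, 360 (199 higher and 161 lower) kept their call whichever of the 6 arrays was left out. Probes called numbered 731 without air 1, 1946 without air 2, 1775 without air 3, 1043 without CS 2 and 1836 without CS 3. Array row as a model term, whose effect rests on air 3 alone, left 309 probes called (129 higher and 180 lower), and 123 of the 168 genes called in that fit were among the 1946. Of 70 gene families, 49 had 0 rises and 58 had 0 falls in that fit, and no family had more than 4 rises or 3 falls. Of 46 family counts of 1 or 2 calls in a direction, 32 became 0 without at least 1 array. Of the 194 genes given below as called, 34 kept the call with that covariate, namely Ackr3, Aplnr, Areg, Artn, Ass1, Bcl3, Cd200r4, Chrm2, Clec4n, Fabp1, Fgg, Gstp2, Ier3, Ifng, Il1a, Il6, Klk1b11, Mesp1, Mmp11, Mt1, Mt2, Ndrg1, Nrg1, Nupr1, Pmvk, Retnla, Rgs16, Sema6a, Socs3, Stra6l, Tgm1, Tnfaip2, Tnfrsf9 and Trem2.

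**Figure D1:**
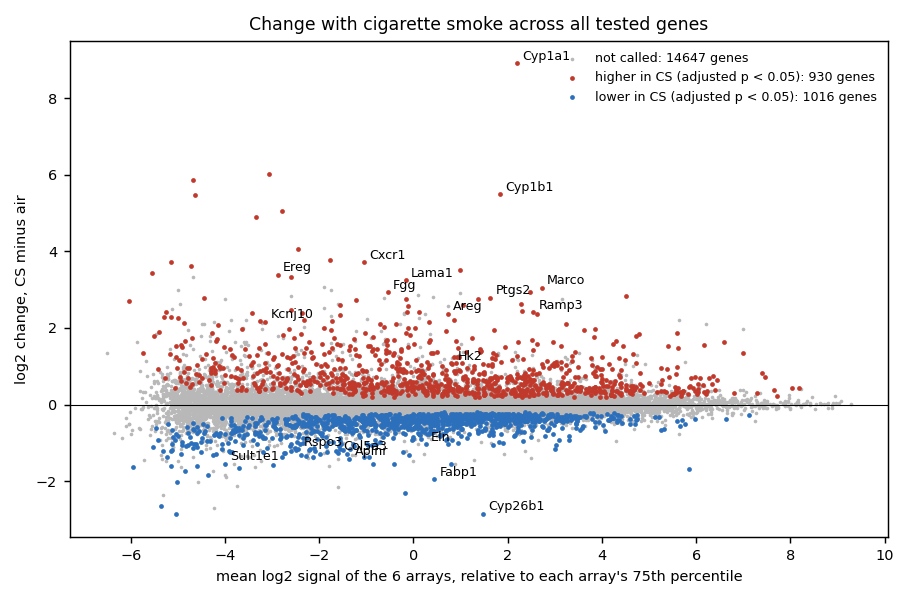
Each point is a gene, plotted by its mean log2 signal over the 6 arrays (x axis, relative to each array's 75th percentile) and its log2 change of CS minus air (y axis), with the 930 higher genes in red, the 1016 lower genes in blue and the genes not called in grey. Rises reach further from 0 than falls, and dim genes on the left spread more than bright ones.

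Outside the xenobiotic enzymes, several of the largest rises were in regulators and secreted proteins. Hnf4a encodes a nuclear receptor of liver and gut epithelium, and its signals were 0.0299, 0.0855 and 0.0545 in air and 0.388, 0.633 and 0.587 in CS, so every CS array lay above the air arrays (log2 change 3.34 ± 0.53, adjusted p 0.0129), of which 2 were above background. Artn encodes artemin, a neurotrophic ligand of the GDNF family, and was measured at 0.819, 0.915 and 0.782 in air and 5.9, 5.45 and 4.06 in CS (log2 change 2.60 ± 0.24, adjusted p 0.00315). Rgs16, which encodes a protein that shortens G protein signals, gave 0.159, 0.173 and 0.167 in air and 1.55, 0.765 and 1.13 in CS (log2 change 2.73 ± 0.22, adjusted p 0.00208). These genes kept their calls without each array. The serine protease gene Prss22 was not well above background on any air array and rose at least 4.82-fold (adjusted p 0.00628), and the kallikrein gene Klk1b11 rose at least 1.55-fold on the same terms (adjusted p 0.00174).

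The 30 largest falls among genes whose groups did not overlap included genes of other kinds. Cyp26b1, Gmnc, Fabp1 and Nupr1, given with their families, fell by more than the genes named here. Mesp1 encodes a transcription factor of early mesoderm and gave signals of 0.301, 0.356 and 0.33 in air and 0.116, 0.136 and 0.14 in CS (log2 change -1.33 ± 0.10, adjusted p 0.00174). Prdm8, a gene of the PR domain family of transcription regulators, gave 0.354, 0.39 and 0.359 in air and 0.108, 0.165 and 0.165 in CS (log2 change -1.36 ± 0.19, adjusted p 0.00798). Sult1e1, whose enzyme sulphates oestrogens, gave 0.0936, 0.107 and 0.12 in air and 0.0423, 0.0451 and 0.0254 in CS (log2 change -1.54 ± 0.24, adjusted p 0.0114) and came with 2 of 3 CS arrays above background. The groups did not overlap in any of these genes, nor in the vasopressin receptor gene Avpr1a (-1.30 ± 0.24), the sugar nucleotide transporter family gene Slc35d3 (-1.30 ± 0.22) or Ackr4 (-1.37 ± 0.30), whose product is a scavenging receptor for lymphoid chemokines. Leaving out 1 array ended the calls of Avpr1a without CS 2 (adjusted p 0.0504) and Ackr4 with any array left out except air 2 or CS 3 (highest adjusted p 0.106).

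A set of 70 gene families, 1877 of their 2119 genes tested, was read against these backgrounds. Members were chosen with earlier results of these data known, which may by itself have raised the shares called. The shares here and below, set beside those of all genes, are therefore descriptions and no test of enrichment. Lists also share members, such as Areg and Hbegf, so their counts are not independent. In 14 families members rose and 0 fell, in 12 members fell and 0 rose, in 35 both occurred and in 9 there was no call. The shares of members that rose were greatest among acute-phase proteins (64.7%), the interleukin-1 family (42.9%) and the interleukin-6 family with STAT3 (40%), and, among families with at least 13 tested members, the shares that fell were greatest among pericyte genes (30.8%), elastic fibre genes (30.4%) and collagen chains (27.3%).

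**Figure D2:**
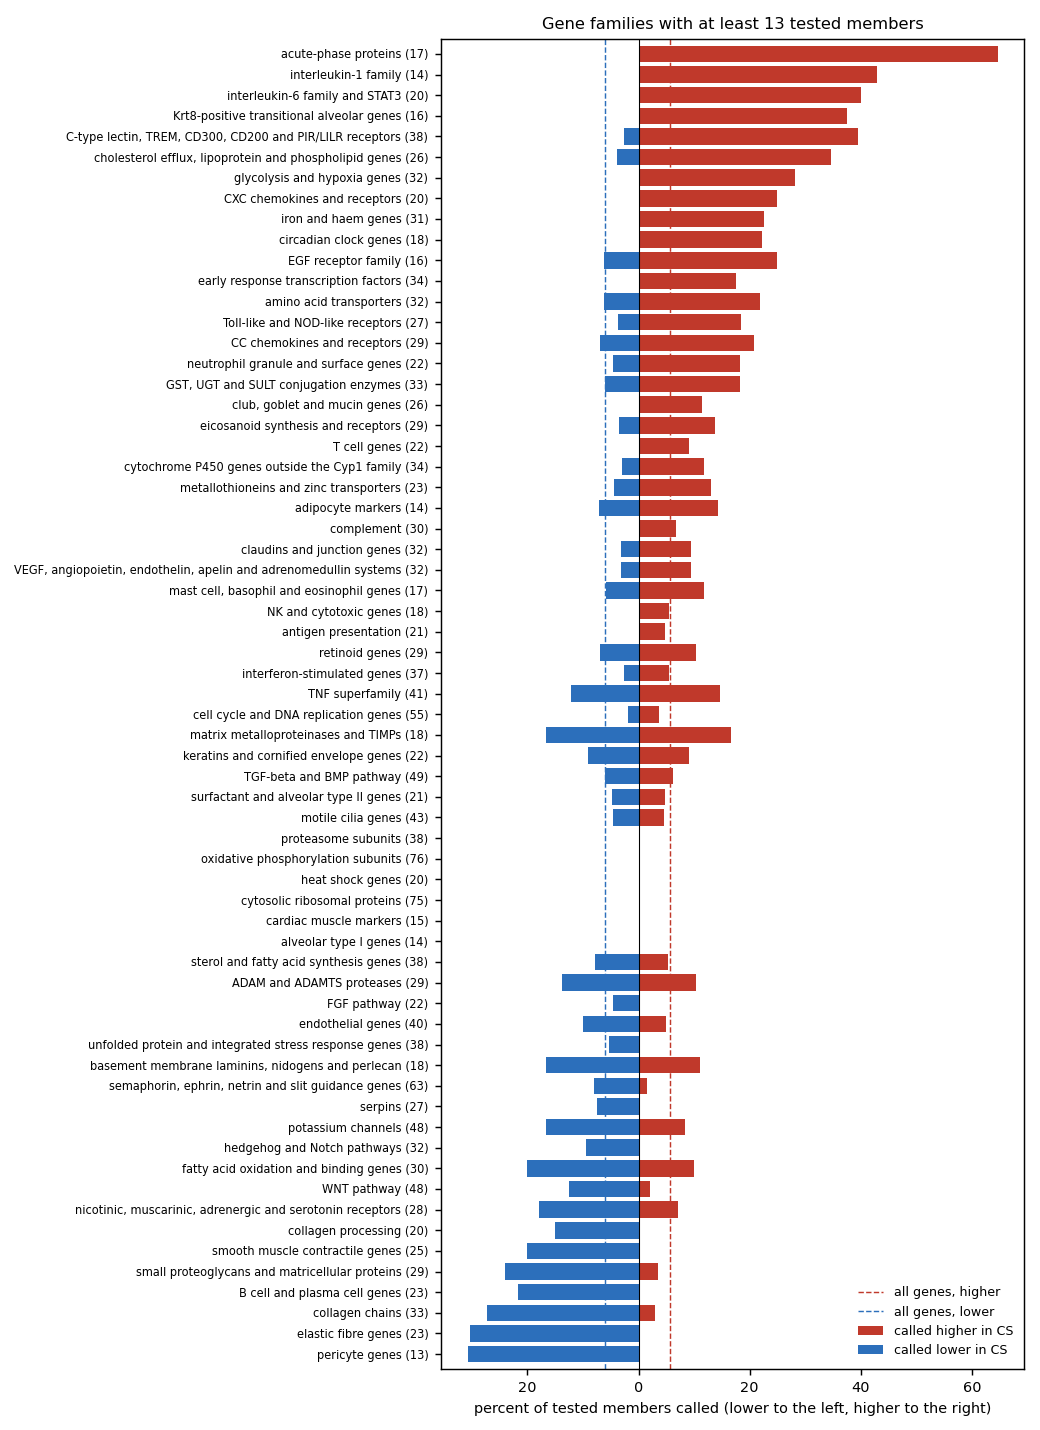
Bars give, for each gene family with at least 13 tested members (number in brackets), the percent of tested members called higher in CS (red, to the right) and lower (blue, to the left), and dashed lines give the same percentages over all genes (5.6% and 6.12%). Families of cytokine and acute-phase genes lie at the top and pericyte, elastic fibre and collagen genes at the bottom. Oxidative phosphorylation, ribosomal, proteasome and heat shock genes have no bar. Members were chosen with earlier results of these data known.

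Acute-phase genes rose in CS lung. Acute-phase proteins are mostly secreted and are made mainly by liver, and in lung by epithelium and leukocytes, under interleukin-6 and interleukin-1. Of 17 tested members 11 rose and 0 fell, with a median change of 0.81 against -0.016 over all genes. Fgg, which encodes the gamma chain of fibrinogen, gave signals of 0.288, 0.314 and 0.168 in air and 1.54, 2.75 and 1.59 in CS (log2 change 2.93 ± 0.37, adjusted p 0.00639), so that the lowest CS value was well above the highest air value. The orosomucoid gene Orm1 gave 0.244, 0.242 and 0.286 in air and 0.941, 0.824 and 1.08 in CS (log2 change 1.88 ± 0.34, adjusted p 0.018). The related gene Orm2 changed by 1.98 ± 0.39; cross-hybridisation within this family was not tested. The serum amyloid gene Saa1 changed by 1.65 ± 0.28, the metalloreductase gene Steap4 by 1.48 ± 0.31 and the chitinase-like Chil1 by 0.72 ± 0.14. Serpina3n, a protease inhibitor gene of the same class, changed by 0.26 ± 0.15, short of the threshold (adjusted p 0.284). The count of 11 became 1 with array row as a covariate and 6 with no filter on dim probes, and with arrays left out it became 3 without air 1, 4 without air 2, 5 without CS 2 or CS 3 and 6 without air 3. Among the genes given here the calls ended for Orm1 and Chil1 with any array left out except air 3 or CS 1 (highest adjusted p 0.069 and 0.0779) and Orm2 with any array left out except CS 1 (highest adjusted p 0.0842). That of Saa1 ended without air 1 (adjusted p 0.0565) and that of Steap4 ended with any array left out except CS 1 or CS 3 (highest adjusted p 0.0954).

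The interleukin-6 family signals through gp130 and the transcription factor STAT3, and SOCS proteins feed back on the receptor. Of the ligand genes, Il6 rose by 2.34 ± 0.36 and Osm, which encodes oncostatin M, gave 0.283, 0.378 and 0.308 in air and 0.961, 1.33 and 1.72 in CS (log2 change 2.02 ± 0.31, adjusted p 0.0114). Its receptor gene Osmr changed by 0.56 ± 0.12 and Stat3 itself by 0.48 ± 0.09. The feedback inhibitor gene Socs3 gave 8.09, 8.76 and 6.54 in air and 29.1, 23.3 and 26.9 in CS (log2 change 1.77 ± 0.16, adjusted p 0.0028). Bcl3, a STAT3 target that binds NF-kB subunits, gave 11.1, 10.6 and 9.61 in air and 23, 25.1 and 26.1 in CS (log2 change 1.24 ± 0.09, adjusted p 0.00174). In both, the 3 CS arrays stood close together and more than 2-fold above air. Socs1 changed by 0.45 ± 0.09 and the C/EBP factor gene Cebpd by 0.69 ± 0.17. Of 20 members 8 rose and 0 fell (median 0.26), a count that became 2 without air 1, 4 without air 3 or CS 2 and 5 without CS 3. Single calls were lost for Osm and Il6 without air 1 (adjusted p 0.051 and 0.051) and Osmr and Socs1 with any array left out except CS 1 (highest adjusted p 0.099 and 0.0803). That of Stat3 ended without air 1, air 3 or CS 2 (highest adjusted p 0.0747) and that of Cebpd ended with any of the 6 arrays left out (highest adjusted p 0.13).

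Chemokines of the CXC class that attract neutrophils lie side by side on chromosome 5. Cxcl1 gave 0.367, 0.439 and 0.376 in air and 2.85, 1.17 and 2.75 in CS (log2 change 2.41 ± 0.31, adjusted p 0.00685). Cxcl2 gave 0.0431, 0.0347 and 0.0459 in air and 0.142, 0.145 and 0.197 in CS (log2 change 1.96 ± 0.25, adjusted p 0.00649), with no overlap between the groups. Because both genes moved together, the 250 bases before each start are shown, from RefSeq (GRCm38.p6, plus strand), at chr5:90890995-90891244 for Cxcl1 and chr5:90903649-90903898 for Cxcl2, with capitals marking the longest stretch that the windows have in common:
Cxcl1: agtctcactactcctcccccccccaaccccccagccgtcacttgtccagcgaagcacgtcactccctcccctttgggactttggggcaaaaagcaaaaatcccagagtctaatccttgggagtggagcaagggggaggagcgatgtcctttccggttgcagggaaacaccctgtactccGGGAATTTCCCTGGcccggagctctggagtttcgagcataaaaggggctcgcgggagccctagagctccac
Cxcl2: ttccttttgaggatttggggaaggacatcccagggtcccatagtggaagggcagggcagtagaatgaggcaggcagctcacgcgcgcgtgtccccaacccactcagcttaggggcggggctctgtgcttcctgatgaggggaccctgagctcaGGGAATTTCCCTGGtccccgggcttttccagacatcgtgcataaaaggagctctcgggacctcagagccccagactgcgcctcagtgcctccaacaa
The common stretch is 14 bases long and begins 71 bases before the start of Cxcl1 and 97 bases before that of Cxcl2. It holds a sequence of the form that NF-kB binds, as background. On either strand it occurred in 2 of 32851 promoter windows of this length (0.00609%), those of Cxcl1 and Cxcl2. The stretch was picked from these 2 windows, so both matches were fixed in advance. How often other stretches of 14 bases recur was not tested, so the share is no measure of specificity. A match of letters describes the sequence and shows no binding in these lungs.

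The other CXC genes moved less evenly. Cxcl17, a mucosal chemokine gene, changed by 1.03 ± 0.19 and the scavenger receptor gene Ackr3 by 1.26 ± 0.22. Cxcr1, a neutrophil receptor for these ligands, gave 0.0996, 0.213 and 0.111 in air and 1.74, 1.22 and 2.53 in CS (log2 change 3.72 ± 0.52, adjusted p 0.00869). Cxcl5, made by alveolar epithelium, gave 0.165, 1.73 and 0.502 in air and 3.03, 1.99 and 3.2 in CS, which spread widely in air and did not pass (log2 change 2.36, adjusted p 0.166). The B cell attractant Cxcl13 gave -0.37 ± 0.25 (adjusted p 0.37). In all, 5 of 20 members rose and 0 fell (median 0.22; the count was 3 without air 1 or CS 2). Among CC chemokines and receptors 6 of 29 rose and 2 fell. Ccl28, a mucosal chemokine gene, gave 0.056, 0.0623 and 0.0738 in air and 0.178, 0.14 and 0.156 in CS (log2 change 1.31 ± 0.20, adjusted p 0.0106). The monocyte attractant Ccl2 changed by 0.91 ± 0.19. The T helper cell attractant Ccl17 changed by 0.69 ± 0.17 and the eosinophil attractant Ccl24 fell by 1.01. Ccr8 was not well above background in air and was at least 1.72-fold higher in CS (adjusted p 0.0135). The 6 CC rises numbered 3 without air 1, air 2, air 3, CS 2 or CS 3, and the 2 falls numbered 0 without air 1 and 1 without air 2, air 3, CS 1 or CS 3. Calls ended for Cxcl17 with any array left out except air 3 or CS 1 (highest adjusted p 0.0671) and Ackr3 without air 1 or CS 2 (highest adjusted p 0.0613). That of Ccl2 ended with any array left out except CS 1 (highest adjusted p 0.0762) and that of Ccl17 ended with any of the 6 arrays left out (highest adjusted p 0.131). That of Ccl24 ended with any array left out except CS 2 (highest adjusted p 0.115).

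Of the interleukin-1 family, alarmins and inflammasome products that act on epithelium and leukocytes, 6 of 14 members rose and 0 fell (median 0.80). Il1b gave 2.33, 2.7 and 3.26 in air and 7.24, 15.4 and 24.4 in CS (log2 change 2.35 ± 0.56, adjusted p 0.0399), lowest on CS 1 and highest on CS 3. Il1a, with 2 of 3 air arrays above background, changed by 1.17 ± 0.25, Il18 by 0.45 ± 0.11 and the interleukin-18 receptor gene Il18rap by 1.36 ± 0.35. The receptor antagonist gene Il1rn gave 0.89 ± 0.29, short of the threshold on its brightest probe (adjusted p 0.0884), while its other tested probe changed by 1.13 and was called higher. The 6 rises numbered 1 without CS 2, 2 without air 1 or CS 3 and 3 without air 2. Each of the 4 that rose and are named here lost its call somewhere, Il1b and Il18rap with any array left out except CS 1 (highest adjusted p 0.124 and 0.133) and Il1a without CS 1, CS 2 or CS 3 (highest adjusted p 0.0917). That of Il18 ended with any array left out except air 3 (highest adjusted p 0.114). The summed signal of 11 neutrophil marker genes lay between 184 and 231 in air and at 334, 539 and 758 in CS 1, CS 2 and CS 3, so CS 1 was lowest and CS 3 highest, as for Il1b. Of those 11 markers 10 were higher on average and 0 were called, each was well above background on at least 1 of the 6 arrays, and their part in the cytokine changes was not tested. In a wider list of 22 neutrophil granule and surface genes 4 rose and 1 fell with a median of 1.61, and the rises numbered 0 without air 1, 1 without air 3, CS 2 or CS 3, 2 without air 2 and 10 without CS 1.

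Ligands of the EGF receptor family gave some of the larger rises among growth factors. Ereg encodes epiregulin, and its signals were 0.0293, 0.0508 and 0.0499 in air and 0.427, 0.538 and 0.365 in CS (log2 change 3.38 ± 0.43, adjusted p 0.00655), with 2 of 3 air arrays above background. Areg encodes amphiregulin and gave 0.753, 0.797 and 0.642 in air and 5.18, 4.03 and 2.58 in CS (log2 change 2.38 ± 0.26, adjusted p 0.00483). Every CS array exceeded every air array by more than 3-fold for Areg and more than 7-fold for Ereg. Nrg1, whose product binds ERBB3 and ERBB4, gave 2.27, 2.26 and 1.88 in air and 3.52, 3.82 and 3.79 in CS (log2 change 0.80 ± 0.10, adjusted p 0.00607). Nrg2 gave 1.02, 0.824 and 1.15 in air and 0.577, 0.578 and 0.613 in CS (log2 change -0.75 ± 0.14, adjusted p 0.0194). Hbegf, which encodes heparin-binding EGF, changed by 0.83 ± 0.15. In total 4 of 16 members rose and 1 fell; without 1 array 3 or 4 of them rose. The calls that ended were those of Nrg2 without air 1, air 3 or CS 2 (highest adjusted p 0.0739) and Hbegf without air 2, air 3 or CS 2 (highest adjusted p 0.064).

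**Figure D3:**
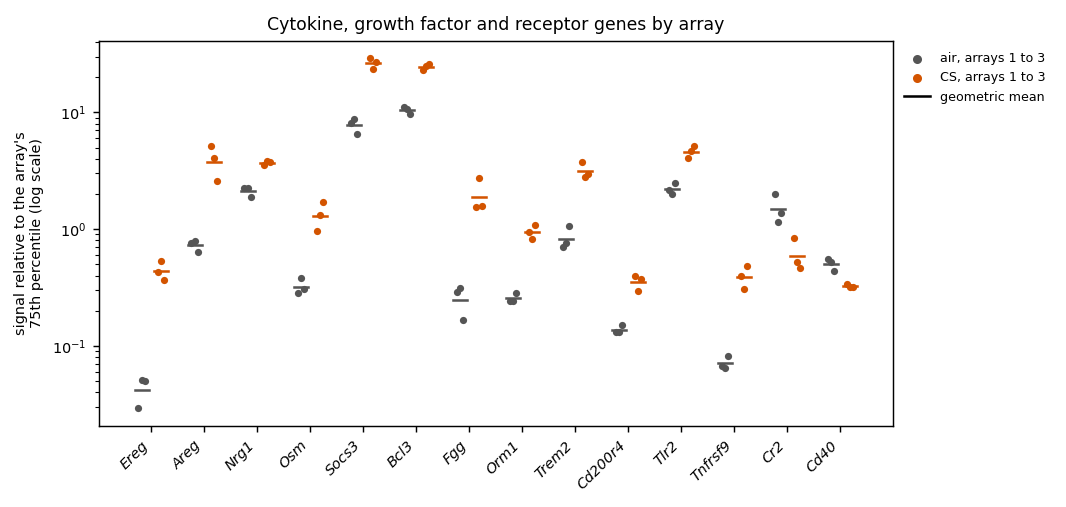
Points are single arrays (air in grey, CS in orange), placed by signal relative to the array's 75th percentile on a log scale, with a bar at each group's geometric mean. For each gene the CS points lie wholly above the air points, except Cr2 and Cd40, where they lie wholly below; heights of different genes are from different probes and are not comparable.

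Surface receptor genes of myeloid cells were among the rises. Of 38 C-type lectin, TREM, CD300, CD200 and PIR/LILR receptor genes 15 rose and 1 fell. Trem2, a lipid-sensing receptor of macrophages, gave 0.708, 0.764 and 1.06 in air and 3.79, 2.78 and 2.99 in CS (log2 change 1.93 ± 0.17, adjusted p 0.00278). Cd200r4, of the family that binds the inhibitory ligand CD200 or pairs with activating adaptors, gave 0.131, 0.132 and 0.15 in air and 0.398, 0.294 and 0.376 in CS (log2 change 1.36 ± 0.13, adjusted p 0.0036). Clec4n, which encodes the fungal receptor dectin-2, gave 2.86, 3 and 3.11 in air and 6.54, 6.98 and 8 in CS (log2 change 1.26 ± 0.10, adjusted p 0.00193). These kept their calls without each array. Lilrb4a, an inhibitory receptor gene, changed by 1.96 ± 0.31, Trem1 by 0.66 ± 0.12 and Cd300c2 by 0.69 ± 0.12. The 1 fall was in Siglecg (-1.31 ± 0.30), a receptor gene of B cells. The 15 rises numbered 4 without air 1, 5 without CS 2, 7 without air 2, 8 without CS 3 and 9 without air 3. Calls were lost for Lilrb4a without air 1 (adjusted p 0.052) and Trem1 and Cd300c2 without air 1 or CS 2 (highest adjusted p 0.0686 and 0.0671). That of Siglecg ended with any array left out except air 2 or CS 1 (highest adjusted p 0.111). The summed signal of 10 macrophage markers was 174 to 190 in air and 306 to 367 in CS, with 4 of the 10 called higher; its part in these receptor changes was not tested.

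Among Toll-like and NOD-like receptors and their partners 5 of 27 rose and 1 fell (1 without air 1 or CS 2 and 2 without air 2 or CS 3, for the rises). Tlr2, the receptor for bacterial lipopeptides, gave 2.17, 1.99 and 2.46 in air and 4.09, 4.65 and 5.18 in CS (log2 change 1.07 ± 0.11, adjusted p 0.00416). The endotoxin co-receptor gene Cd14 changed by 0.94 ± 0.20, the adaptor gene Myd88 by 0.67 ± 0.15 and the endotoxin-sensing caspase gene Casp4 by 0.96 ± 0.19. Tlr3, which senses double-stranded RNA, fell by 0.56 (adjusted p 0.0471), as did Ifit2 (-0.56 ± 0.08), a gene that interferon induces. The other tested probe of Tlr3 changed by -0.23 and was not called. Among 37 interferon-stimulated genes only 2 rose and 1 fell by the test (5.41% and 2.7%, against 5.6% and 6.12% of all genes). Of the 37 changes 30 were positive (median 0.44), and the 2 rises numbered 0 without air 1, air 2, air 3, CS 2 or CS 3. Left-out arrays ended calls of Cd14 without air 1, CS 2 or CS 3 (highest adjusted p 0.0799) and Myd88 with any array left out except CS 1 (highest adjusted p 0.0991). That of Casp4 ended without air 1, air 2 or CS 2 (highest adjusted p 0.0739) and that of Tlr3 ended with any of the 6 arrays left out (highest adjusted p 0.137).

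The TNF superfamily and its receptors split, with 6 of 41 members higher and 5 lower. Tnfrsf9 encodes the T cell costimulator 4-1BB and gave 0.0669, 0.064 and 0.0826 in air and 0.397, 0.307 and 0.484 in CS (log2 change 2.46 ± 0.23, adjusted p 0.00327). Tnfaip2, a TNF-induced gene, gave 3.35, 3.38 and 3.98 in air and 8.04, 9.38 and 11.4 in CS (log2 change 1.42 ± 0.14, adjusted p 0.0036). On the lower side, Tnfrsf11b, which encodes the decoy receptor osteoprotegerin, gave 0.108, 0.115 and 0.116 in air and 0.0651, 0.0671 and 0.0668 in CS (log2 change -0.76 ± 0.10, adjusted p 0.00715). Cd40, the costimulator of B cells and antigen presenting cells, gave 0.554, 0.518 and 0.434 in air and 0.34, 0.318 and 0.319 in CS (log2 change -0.62 ± 0.10, adjusted p 0.0135). The hyaluronan-binding Tnfaip6 changed by 0.76 ± 0.13 and Tnf itself by 0.38 ± 0.14, which did not pass on its brightest probe (adjusted p 0.111) while its other tested probe changed by 0.92 and was called higher. The rises numbered 2 without air 1 and 3 without CS 2, the falls 1 without air 1 or CS 2 and 3 without air 2 or air 3. The calls that ended were those of Cd40 and Tnfaip6 without air 1 or CS 2 (highest adjusted p 0.0518 and 0.0588).

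The eicosanoid genes that rose were mostly synthases. Ptgs2, which encodes the inducible cyclooxygenase COX-2, gave 0.98, 2.75 and 0.602 in air and 11.2, 7.44 and 6.36 in CS (log2 change 2.78 ± 0.58, adjusted p 0.0264), with air 2 well above the other air arrays. The thromboxane synthase gene Tbxas1 changed by 0.70 ± 0.12, the leukotriene C4 synthase gene Ltc4s by 0.53 ± 0.08 and the prostaglandin E receptor gene Ptger4 by 0.42 ± 0.08, while the thromboxane receptor gene Tbxa2r fell by 1.08 (adjusted p 0.0186). These are the 5 of 29 members called, 4 higher and 1 lower, and the rises became 0 without air 1 and 1 without CS 2. Each lost its call without some array, Ptgs2 with any array left out except air 2 (highest adjusted p 0.0926) and Tbxas1 without air 1 or CS 2 (highest adjusted p 0.0643). That of Ltc4s ended without air 1 (adjusted p 0.0512) and those of Ptger4 and Tbxa2r ended without air 1, air 2 or CS 2 (highest adjusted p 0.0767 and 0.0588).

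All calls among B cell genes were falls. Of 23 B cell and plasma cell genes 5 fell and 0 rose, 21 had a negative change and the median was -1.06. Cr2, the complement receptor of mature B cells, gave 2.01, 1.16 and 1.38 in air and 0.841, 0.525 and 0.46 in CS (log2 change -1.33 ± 0.32, adjusted p 0.0403). Tnfrsf13c, which encodes the BAFF receptor, gave 1.3, 0.718 and 0.902 in air and 0.485, 0.285 and 0.237 in CS (log2 change -1.56 ± 0.38, adjusted p 0.0407). The B cell gene Fcrla gave 1.11, 0.611 and 0.86 in air and 0.437, 0.32 and 0.247 in CS (log2 change -1.36 ± 0.33, adjusted p 0.0401). In each, air 1 was highest and CS 2 and CS 3 lowest. The receptor chain gene Cd79a changed by -1.17 ± 0.31 and did not reach the threshold (adjusted p 0.0505), but it did in the fit to 6 arrays alone (adjusted p 0.0481) and with the replicate block (0.0223). The count of 5 became 15 with the replicate block, 9 with normexp background correction or an intensity trend, and 0 with array row as a covariate or no filter on dim probes. With arrays left out it became 0 without air 1, air 3 or CS 2, 1 without CS 3 and 2 without air 2, and the named calls ended for Cr2 and Tnfrsf13c with any array left out except CS 1 (highest adjusted p 0.126 and 0.13) and Fcrla with any array left out except air 2 or CS 1 (highest adjusted p 0.128). The summed signal of the 23 genes was 76.3, 50.9 and 77.2 in air and 57.6, 44.8 and 45.3 in CS, so the groups overlapped in it.

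Among T cell genes 2 of 22 rose (9.09%) and among natural killer genes 1 of 18 (5.56%), against 5.6% of all genes. Falls numbered 0 in both lists. Icos, a costimulator of activated T cells, changed by 0.70 ± 0.14, and the checkpoint gene Ctla4, with 1 of 3 air arrays above background, by 0.96 ± 0.17. Ifng, which encodes interferon gamma, gave 0.119, 0.102 and 0.0698 in air and 0.186, 0.207 and 0.191 in CS (log2 change 1.04 ± 0.19, adjusted p 0.0195). All 3 calls were sensitive to single arrays, Icos with any array left out except air 2 (highest adjusted p 0.0781) and Ctla4 without air 1 or CS 2 (highest adjusted p 0.0601). That of Ifng ended without CS 2 or CS 3 (highest adjusted p 0.0689). The 2 T cell rises numbered 0 without air 1 or CS 2 and 1 without air 3, CS 1 or CS 3. The T cell sum overlapped between the groups (37.5 to 41 in air and 36.4 to 48.2 in CS).

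Several genes of the fibrillar matrix fell. Collagen chains make the tensile scaffold of the lung, and 9 of 33 fell while 1 rose (median -0.32). Col5a3, a minor fibrillar chain, gave 0.427, 0.629 and 0.505 in air and 0.217, 0.271 and 0.164 in CS (log2 change -1.27 ± 0.21, adjusted p 0.0139). Col2a1, best known from cartilage, gave 0.573, 0.653 and 0.541 in air and 0.297, 0.335 and 0.242 in CS (log2 change -1.02 ± 0.12, adjusted p 0.00589). Col3a1 changed by -0.91 ± 0.16 and Col1a2 by -0.64 ± 0.14, and the basement membrane chain gene Col4a4 changed by -0.51 ± 0.10. The 9 falls numbered 5 without air 1 or air 2. Of the collagen processing genes 3 of 20 fell, among them the propeptidase gene Adamts2 (-0.45 ± 0.09) and the chaperone gene Fkbp10 (-0.38 ± 0.09), a count that became 0 without air 1 or CS 3 and 1 without air 2, air 3 or CS 2. Left-out arrays ended calls of Col3a1 without air 1 (adjusted p 0.0643) and Col1a2 without air 1, air 2 or air 3 (highest adjusted p 0.0786). That of Col4a4 ended with any array left out except air 3 or CS 1 (highest adjusted p 0.0898) and that of Adamts2 ended without air 1, air 3 or CS 3 (highest adjusted p 0.0741). That of Fkbp10 ended with any array left out except CS 1 (highest adjusted p 0.118).

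Of 23 elastic fibre genes 7 fell and 0 rose (median -0.29). Eln, the gene of elastin itself, gave 1.54, 2.12 and 1.53 in air and 0.83, 0.978 and 0.719 in CS (log2 change -1.03 ± 0.17, adjusted p 0.013), so the highest CS value was 0.978 against a lowest air value of 1.53. The other tested probe of Eln changed by -0.60 and was not called. The fibulin gene Efemp1 changed by -0.41 ± 0.07, the microfibril gene Mfap2 by -0.31 ± 0.08, Emilin1 by -0.40 ± 0.08 and the crosslinking oxidase gene Loxl2 by -0.50 ± 0.10. The falls numbered 3 without air 1 or air 3 and 4 without air 2 or CS 2. The calls of Efemp1, Mfap2, Emilin1 and Loxl2 did not all hold, ending for Efemp1 without air 1 or air 3 (highest adjusted p 0.0669) and Mfap2 with any of the 6 arrays left out (highest adjusted p 0.151). That of Emilin1 ended with any array left out except CS 3 (highest adjusted p 0.0671) and that of Loxl2 ended with any array left out except CS 1 (highest adjusted p 0.0667). The sum of 10 fibroblast markers was 287 to 301 in air and 266 to 283 in CS, without overlap and with 0 of 10 called, and its part in the matrix changes was not tested.

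The matricellular and basement membrane families had members in both directions. Ccn4, a WNT-induced matricellular gene, gave 0.755, 0.802 and 0.814 in air and 0.358, 0.398 and 0.383 in CS (log2 change -1.06 ± 0.12, adjusted p 0.00552). Thbs1, which encodes the angiogenesis inhibitor thrombospondin-1, rose (1.36 ± 0.35) while Thbs3 fell (-0.83 ± 0.15), and the tenascin gene Tnc fell by 0.69. Of 29 small proteoglycan and matricellular genes 7 fell and 1 rose (median -0.35; falls numbered 1 without air 1, 2 without CS 2 or CS 3, 3 without air 3 and 4 without air 2 or CS 1). In the basement membrane list 3 of 18 fell and 2 rose. Lama1, the laminin chain of embryonic basement membranes, gave 0.211, 0.623 and 0.185 in air and 1.66, 3.13 and 3.95 in CS (log2 change 3.24 ± 0.59, adjusted p 0.0179), with air 2 above the other air arrays, while the nidogen gene Nid2 gave 0.391, 0.379 and 0.367 in air and 0.278, 0.291 and 0.282 in CS (log2 change -0.42 ± 0.06, adjusted p 0.00895). The laminin gene Lama4 changed by -0.41 ± 0.09. Those 3 falls numbered 1 without air 1, air 3, CS 2 or CS 3 and the 2 rises 0 without air 1, air 3, CS 2 or CS 3 and 1 without air 2 or CS 1. Not every call held, with losses for Thbs1 with any array left out except air 2 (highest adjusted p 0.146) and Thbs3 without air 1 or air 3 (highest adjusted p 0.0683). That of Tnc ended with any array left out except CS 1 (highest adjusted p 0.126) and those of Lama1 and Lama4 ended with any array left out except air 2 or CS 1 (highest adjusted p 0.0711 and 0.102).

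Matrix proteases divided as well, 3 of 18 metalloproteinases and TIMPs higher and 3 lower. Mmp11, stromelysin-3 of stromal fibroblasts, gave 3.91, 3.96 and 4.09 in air and 2.2, 2.28 and 2.4 in CS (log2 change -0.80 ± 0.06, adjusted p 0.00174), with little spread in either group. Mmp19 changed by 0.70 ± 0.15, and Mmp7 (matrilysin, of injured epithelium), with 2 of 3 air arrays above background, by 1.67 ± 0.39. The aggrecanase gene Adamts5 changed by -0.79 ± 0.15 and Adamdec1, a macrophage and dendritic cell protease gene, by 0.87 ± 0.15. Metalloproteinase rises numbered 0 without air 2, air 3 or CS 3, 1 without air 1 or CS 2 and 5 without CS 1 and falls 1 without air 1, air 2, air 3 or CS 3. The calls that did not hold were those of Mmp19 and Mmp7 with any array left out except CS 1 (highest adjusted p 0.0933 and 0.114) and Adamts5 with any array left out except air 2 or CS 1 (highest adjusted p 0.0761). That of Adamdec1 ended without air 1 or CS 2 (highest adjusted p 0.0642).

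**Figure D4:**
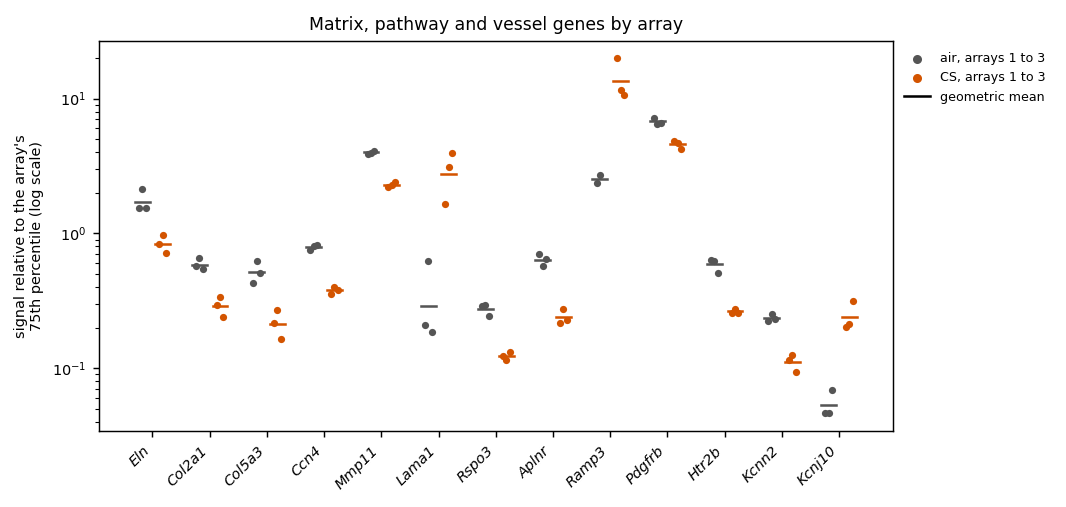
Points are single arrays (air in grey, CS in orange; air 3 of Ramp3 was left out as an outlier spot), placed by signal relative to the array's 75th percentile on a log scale, with a bar at each group's geometric mean. CS points lie below air points for every gene shown except Lama1, Ramp3 and Kcnj10; heights of different genes are not comparable.

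In the WNT, hedgehog and Notch pathways falls outnumbered rises, as they did among all genes (1016 against 930). In the WNT pathway 6 of 48 members fell (12.5%, against 6.12% of all genes) and 1 rose (median -0.19). Rspo3, which encodes a secreted R-spondin that strengthens WNT signals, gave 0.288, 0.296 and 0.246 in air and 0.123, 0.115 and 0.132 in CS (log2 change -1.16 ± 0.15, adjusted p 0.00746). Rspo1 changed by -0.46 ± 0.10, the frizzled receptor gene Fzd8 by -0.48 ± 0.10 and Wnt3a by -0.59 ± 0.11. In the hedgehog and Notch lists 3 of 32 fell (9.38%, against 6.12% of all genes) and 0 rose. They were the receptor gene Ptch1 (-0.55 ± 0.14), the transducer gene Smo (-0.46 ± 0.10) and the Notch-modifying glycosyltransferase gene Mfng (-0.40 ± 0.09). The other tested probe of Ptch1 changed by -0.21 and was not called. In the fit to the 6 air and CS arrays alone the falls in these lists numbered 0. The hedgehog transcription factor gene Gli1 and the hedgehog-binding Hhip changed by -0.57 ± 0.19 and -0.68 ± 0.20, short of the threshold (adjusted p 0.0972 and 0.0692); Gli1 passed in the fit with array row (adjusted p 0.0371). TGF-beta and BMP genes gave 3 rises and 3 falls of 49 (6.12% each, against 5.6% and 6.12% of all genes). Among the falls were Bmp6 at -0.65 ± 0.16 and Gdf10 at -0.92 ± 0.21. Left-out arrays changed the counts: WNT falls numbered 1 without air 1 or air 3, 2 without CS 2 or CS 3 and 3 without CS 1, WNT rises 0 whichever array was left out, hedgehog and Notch falls 0 without air 1, CS 2 or CS 3, TGF-beta and BMP falls 0 without air 1, air 2, air 3 or CS 2 and 1 without CS 3 and rises 0 without air 1, air 2, CS 1 or CS 2 and 1 without air 3 or CS 3. Named calls ended for Rspo1, Fzd8 and Smo with any array left out except air 2 (highest adjusted p 0.118, 0.1 and 0.0868) and Wnt3a with any array left out except air 2 or CS 3 (highest adjusted p 0.0759). Those of Ptch1 and Bmp6 ended with any of the 6 arrays left out (highest adjusted p 0.139 and 0.108) and that of Mfng ended with any array left out except air 3 (highest adjusted p 0.128). That of Gdf10 ended with any array left out except CS 1 or CS 3 (highest adjusted p 0.0914).

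Calls among pericyte and smooth muscle contractile genes were falls. In which cells, and whether in vessels or airways, was not tested. Pericytes wrap capillaries, and 4 of their 13 tested genes fell with 0 higher (median -0.36). Pdgfrb, the receptor that recruits pericytes, gave 7.19, 6.52 and 6.61 in air and 4.87, 4.64 and 4.25 in CS (log2 change -0.56 ± 0.09, adjusted p 0.0141), the nitric oxide receptor subunit gene Gucy1a1 changed by -0.58 ± 0.11 and the cation channel gene Trpc6 by -0.66 ± 0.14. Of 3 tested Trpc6 probes 2 were called lower, and the weakest change among them was -0.11. Of 25 smooth muscle contractile genes 5 fell and 0 rose (median -0.34), among them the intermediate filament gene Synm (-0.56 ± 0.08), the tropomyosin gene Tpm2 (-0.53 ± 0.11) and the caldesmon gene Cald1 (-0.37 ± 0.08), while Acta2, whose 3 probes pointed in both directions, gave -0.56 ± 0.15 and missed the threshold (adjusted p 0.0517). The pericyte falls numbered 0 without air 1, 1 without air 2, CS 2 or CS 3 and 2 without air 3 and the smooth muscle falls 2 without air 1, air 2, CS 2 or CS 3 and 3 without air 3. Single calls ended for Pdgfrb without air 1 (adjusted p 0.0598) and Gucy1a1 and Cald1 with any array left out except air 3 or CS 1 (highest adjusted p 0.0845 and 0.104). Those of Trpc6 and Tpm2 ended with any array left out except CS 1 (highest adjusted p 0.0904 and 0.0727). The smooth muscle sum was 322 to 349 in air and 247 to 305 in CS, the pericyte sum 69.5 to 78.5 and 55.1 to 62.4. Cardiac muscle genes, which can enter with tissue around the hilum, gave sums of 179, 333 and 274 in air and 221, 220 and 131 in CS with 0 of 15 called and all 15 changes negative. Skeletal muscle markers gave sums of 9.38, 10.8 and 9.51 in air and 6.9, 7.62 and 4.63 in CS, which did not overlap, with 1 of 8 lower and all 8 changes negative. The part of both marker lists in these falls was not tested.

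Endothelial genes moved in both directions, 4 of 40 lower (10%, against 6.12% of all genes) and 2 higher (5%, against 5.6%). Aplnr, the apelin receptor of capillary endothelium, gave 0.699, 0.574 and 0.648 in air and 0.217, 0.274 and 0.229 in CS (log2 change -1.42 ± 0.13, adjusted p 0.00278). The angiopoietin receptor gene Tek changed by -0.43 ± 0.08, and Bmx, a kinase gene of arterial endothelium, by 0.67 ± 0.11. The lymphatic marker gene Lyve1 changed by 0.76 ± 0.17. The endothelial sum was 576 to 721 in air and 626 to 641 in CS, so the groups overlapped. Falls numbered 1 without air 1 and 2 without CS 2 or CS 3 and rises 0 without CS 2 and 1 without air 1, air 3 or CS 3. Among these, calls ended for Tek and Bmx without air 1 or CS 2 (highest adjusted p 0.0741 and 0.0579) and Lyve1 with any array left out except air 1 (highest adjusted p 0.107).

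The peptide system of calcitonin gene-related peptide (CGRP) and adrenomedullin had members that rose and a receptor gene that fell. The receptor protein encoded by Calcrl pairs with RAMP partners, RAMP1 giving a CGRP receptor and RAMP3 an adrenomedullin receptor. Ramp3 gave 2.35 and 2.71 in air 1 and air 2 (air 3 was left out as an outlier spot) and 19.8, 11.6 and 10.6 in CS (log2 change 2.41 ± 0.26, adjusted p 0.00558). Its air values thus came from array row 1 alone and its CS values from row 2. For Ramp3 exposure and array row cannot be told apart, and the fit with array row gave no value. Leaving out air 3 took away no value of this gene. Ramp1 gave 2.2, 2.54 and 2.64 in air and 3.42, 4.08 and 3.54 in CS (log2 change 0.58 ± 0.11, adjusted p 0.0212). Of 3 tested Ramp1 probes only this 1 was called, and the smallest change among them was 0.054. Calca, which encodes CGRP and is expressed by neuroendocrine cells and nerves in lung, gave 0.809, 0.601 and 1.09 in air and 2.25, 2.37 and 1.67 in CS (log2 change 1.36 ± 0.27, adjusted p 0.0246). The other tested probe of Calca changed by 0.67 and was not called. Calcrl gave 53.4, 45.1 and 46.4 in air and 25.6, 26.9 and 40.4 in CS (log2 change -0.67 ± 0.17, adjusted p 0.0449), lower on every CS array, with CS 3 nearest to air. Aside from Aplnr and Tek, which were counted with the endothelial genes, these were the 3 rises and 1 fall among 32 vasoactive and angiogenic peptide genes and receptors. The rises numbered 1 without air 1 or CS 2. The calls of 3 of these genes did not hold throughout, ending for Ramp1 without air 1 or CS 2 (highest adjusted p 0.0757) and Calca with any array left out except air 3 or CS 3 (highest adjusted p 0.0828). That of Calcrl ended with any array left out except CS 3 (highest adjusted p 0.142).

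Receptors for amines and potassium channels contributed further falls. Htr2b encodes the serotonin receptor of pulmonary vessels and fibroblasts and gave 0.637, 0.625 and 0.513 in air and 0.259, 0.276 and 0.257 in CS (log2 change -1.16 ± 0.13, adjusted p 0.00525). The adrenergic receptor gene Adra1b gave 0.35, 0.483 and 0.384 in air and 0.21, 0.227 and 0.146 in CS (log2 change -1.07 ± 0.19, adjusted p 0.0174). The muscarinic receptor genes Chrm2 and Chrm3 changed by -0.74 ± 0.17 and 1.26 ± 0.26, in opposite directions. Of 28 receptor genes of this kind 5 fell and 2 rose. Kcnn2, a calcium-activated potassium channel gene, gave 0.223, 0.252 and 0.231 in air and 0.116, 0.126 and 0.0947 in CS (log2 change -1.08 ± 0.11, adjusted p 0.00417). The inward rectifier gene Kcnj10 gave 0.0463, 0.047 and 0.0695 in air and 0.204, 0.212 and 0.315 in CS (log2 change 2.17 ± 0.32, adjusted p 0.0107). Kcna5, a channel of pulmonary artery muscle, was not well above background in CS and was at least 1.73-fold lower (adjusted p 0.0141), and the tandem-pore channel gene Kcnk3 changed by -0.40 ± 0.06. Potassium channels gave 8 falls and 4 rises of 48. Receptor falls numbered 2 without air 1 or CS 2 and 3 without air 2, CS 1 or CS 3 and rises 0 without CS 1, CS 2 or CS 3 and 1 without air 1, air 2 or air 3; channel falls numbered 1 without air 1, 3 without CS 2, 4 without air 2 or air 3 and 5 without CS 1 and rises 1 without air 1 and 2 without air 2 or CS 2. The named calls ended for Chrm2 with any array left out except air 3 (highest adjusted p 0.11) and Chrm3 without CS 1, CS 2 or CS 3 (highest adjusted p 0.0886). Those of Kcna5 and Kcnk3 ended without air 1 (adjusted p 0.0534 and 0.051). Of 63 semaphorin, ephrin, netrin and slit guidance genes 5 were lower (7.94%, against 6.12% of all genes) and 1 higher, and Sema6a gave 1.82, 1.63 and 1.66 in air and 0.976, 0.985 and 1.1 in CS (log2 change -0.74 ± 0.07, adjusted p 0.0036). The netrin receptor gene Unc5b changed by 0.82 ± 0.12. Guidance falls numbered 1 without CS 2, 2 without air 1 or air 3 and 3 without air 2 or CS 1.

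Few genes of epithelial identity passed the test. Of 21 surfactant and alveolar type II genes 1 rose and 1 fell (4.76% each, against 5.6% and 6.12% of all genes). Both counts became 0 whichever array was left out. Of 14 alveolar type I genes 0 passed (3 at an unadjusted p under 0.05 in limma). Sftpb gave 230, 227 and 231 in air and 247, 252 and 234 in CS (log2 change 0.09 ± 0.06, adjusted p 0.368). The club cell gene Scgb1a1 gave 530, 515 and 525 in air and 577, 562 and 533 in CS (log2 change 0.09 ± 0.06, adjusted p 0.326). A list of the Krt8-positive transitional state, through which type II cells pass in repair, had 6 of 16 members higher and 0 lower (median 0.49). Besides Areg and Hbegf these were Lgals3 (galectin-3, 0.69 ± 0.11), Ndrg1 (11.5, 12.3 and 10.2 in air and 21.3, 19 and 17.3 in CS; 0.76 ± 0.10), the urokinase receptor gene Plaur (0.98 ± 0.18) and Krt8 (0.65 ± 0.13). Macrophages also express Lgals3 and Plaur, and the part of the macrophage markers in these rises was not tested. The count of 6 became 3 without air 3 or CS 2. The list's summed signal was 302 to 316 in air and 406 to 450 in CS. Calls ended for Plaur without air 1, air 3 or CS 2 (highest adjusted p 0.0707) and Krt8 with any array left out except CS 1 (highest adjusted p 0.0842).

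Single genes of the airway epithelium changed. Retnla, which encodes a secreted resistin-like protein of airway epithelium and alternatively activated macrophages, gave 25.4, 22.5 and 28.1 in air and 91.7, 92.3 and 91 in CS (log2 change 1.86 ± 0.15, adjusted p 0.00202), with 3 nearly equal CS arrays. In the list of 43 motile cilia genes 2 rose and 2 fell (4.65% each, against 5.6% and 6.12% of all genes). Ccno, needed to build the many basal bodies of a ciliated cell, gave 0.389, 0.385 and 0.367 in air and 1.63, 1.18 and 0.94 in CS (log2 change 1.68 ± 0.21, adjusted p 0.00655). Gmnc, which encodes an upstream switch of the same programme, was not well above background in CS and was at least 2.27-fold lower (adjusted p 0.0151). The ciliated cell factor gene Foxj1 gave 5.31, 5.39 and 6.23 in air and 6.58, 6.32 and 6.63 in CS (log2 change 0.21 ± 0.12, adjusted p 0.306) and did not pass. Tgm1, a transglutaminase gene of squamous epithelium, gave 0.113, 0.192 and 0.112 in air and 0.4, 0.606 and 0.659 in CS (log2 change 2.01 ± 0.25, adjusted p 0.00619). Krt23 gave 5.13, 4.36 and 4.59 in air and 2.59, 2.33 and 1.89 in CS (log2 change -1.05 ± 0.15, adjusted p 0.00933). The gel mucin gene Muc2 changed by 1.25 ± 0.24 and the transmembrane mucin gene Muc13 by 0.57 ± 0.14, with 3 of 26 club, goblet and mucin genes higher (1 without air 1, CS 2 or CS 3). Calls were lost for Gmnc without CS 2 (adjusted p 0.0548) and Muc2 with any array left out except air 2 or CS 1 (highest adjusted p 0.0746). That of Muc13 ended with any of the 6 arrays left out (highest adjusted p 0.109). The cilia falls numbered 0 without CS 2 and 1 without air 1, air 3 or CS 3 with rises of 1 without air 1, air 2, air 3, CS 1 or CS 2.

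Retinoid genes held a large rise and a large fall. Retinoic acid, made from vitamin A, maintains alveolar and airway epithelium, and CYP26 enzymes degrade it. Stra6l, a relative of the vitamin A transporter gene Stra6, gave 0.0399, 0.0564 and 0.0397 in air and 0.696, 0.707 and 0.839 in CS (log2 change 4.06 ± 0.19, adjusted p 0.000483), so the lowest CS array exceeded the highest air array more than 10-fold. Cyp26b1 gave 4.77, 13.1 and 6.76 in air and 0.696, 1.66 and 0.972 in CS (log2 change -2.85 ± 0.45, adjusted p 0.0126), with air 2 above the other air arrays and every CS array below all of them. Stra6 itself changed by -0.32 ± 0.08, the dehydrogenase gene Dhrs9 by 2.17 ± 0.56 and the retinoic acid receptor gene Rara by 0.48 ± 0.09. These were the 3 rises and 2 falls among 29 members (10.3% and 6.9%, against 5.6% and 6.12% of all genes). The rises numbered 1 without air 1, CS 2 or CS 3 and the falls 1 whichever array was left out. The calls that ended were those of Stra6 with any of the 6 arrays left out (highest adjusted p 0.138) and Dhrs9 with any array left out except CS 1 (highest adjusted p 0.144). That of Rara ended without air 1, CS 2 or CS 3 (highest adjusted p 0.0723).

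Calls among the glycolysis genes were rises. Glycolysis turns glucose to lactate, and 9 of 32 glycolysis and hypoxia genes rose while 0 fell (median 0.20). Hk2, whose hexokinase commits glucose to the pathway, gave 1.17, 1.27 and 1.25 in air and 2.94, 2.63 and 2.18 in CS (log2 change 1.06 ± 0.11, adjusted p 0.00417). Slc16a3, which exports lactate, gave 2.03, 2.2 and 2.63 in air and 5.92, 6.69 and 6.92 in CS (log2 change 1.51 ± 0.20, adjusted p 0.00771). The glucose transporter gene Slc2a1 changed by 0.60 ± 0.10, lactate dehydrogenase Ldha by 0.37 ± 0.06, Aldoa by 0.30 ± 0.06, Gapdh by 0.36 ± 0.08 and Hif1a, the hypoxia factor, by 0.33 ± 0.07. The rises numbered 3 without air 1 or CS 2 and 5 without air 2, air 3 or CS 3. Left-out arrays ended calls of Slc2a1 and Ldha without air 1 or CS 2 (highest adjusted p 0.0575 and 0.0646) and Aldoa, Gapdh and Hif1a with any array left out except CS 1 (highest adjusted p 0.0982, 0.113 and 0.0843). Oxidative phosphorylation subunits gave 0 calls among 76 genes in limma (4 at an unadjusted p under 0.05), with a median of -0.03.

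In fatty acid oxidation and binding 6 of 30 genes fell and 3 rose (median -0.21). The acyl-CoA thioesterase genes Acot1 and Acot2 gave 13.2, 11.6 and 10.6 in air and 5.86, 5.68 and 5.43 in CS (log2 change -1.05 ± 0.15, adjusted p 0.00819) and 1.55, 1.38 and 1.34 in air and 0.838, 0.864 and 0.798 in CS (log2 change -0.77 ± 0.09, adjusted p 0.00613). Both are textbook targets of the fatty acid receptor PPARalpha. Of the 12 tested genes listed in this family as PPAR targets, 4 fell and 2 rose. The fatty acid binding protein gene Fabp1 gave 3.42, 1.98 and 2.83 in air and 0.593, 0.88 and 0.64 in CS (log2 change -1.95 ± 0.21, adjusted p 0.00478). The uncoupling protein genes Ucp2 and Ucp3 rose by 0.60 ± 0.11 and 0.65 ± 0.12. Acot1 and Acot2 are near-identical copies whose probes may share signal, and probes of Acot5 were called in both directions. The rises became 0 without CS 2 and 1 without CS 3. The sum of 14 adipocyte markers was 67.1 to 89.6 in air and 50.3 to 70.5 in CS, with overlap, and its part in these falls was not tested. Not every call held, with losses for Ucp2 without CS 2 or CS 3 (highest adjusted p 0.0665) and Ucp3 without CS 2 (adjusted p 0.0624).

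Of 26 cholesterol and phospholipid handling genes 9 rose and 1 fell, and macrophages express several of the 9; the part of the macrophage markers, with sums of 174 to 190 in air and 306 to 367 in CS, was not tested. Marco, a scavenger receptor for particles, gave 3.28, 1.68 and 2.17 in air and 25.7, 11.6 and 22.8 in CS (log2 change 3.05 ± 0.34, adjusted p 0.00482). Pld3, a lysosomal phospholipase family gene, gave 3.45, 3.61 and 3.74 in air and 6.32, 5.68 and 5.48 in CS (log2 change 0.69 ± 0.08, adjusted p 0.00483). The scavenger receptor genes Olr1 and Msr1 changed by 0.89 ± 0.18 and 1.71 ± 0.19 (Msr1 with 1 of 3 air arrays above background), the cholesterol exporter gene Abcg1 by 0.35 ± 0.08 and Scarb1 by 0.29 ± 0.07. The rises numbered 3 without air 1, air 2 or CS 3 and 4 without air 3 or CS 2. In sterol and fatty acid synthesis 2 of 38 rose and 3 fell (5.26% and 7.89%, against 5.6% and 6.12% of all genes). Pmvk, a kinase of the mevalonate pathway, gave 13, 16.2 and 13.3 in air and 51.9, 53.2 and 43.4 in CS (log2 change 1.80 ± 0.14, adjusted p 0.00193). Mevalonate kinase Mvk changed by -0.31 ± 0.08. Synthesis rises numbered 1 without air 1 and falls 1 without air 1, air 3, CS 2 or CS 3. The calls of these genes ended for Olr1 with any array left out except air 3 or CS 2 (highest adjusted p 0.0907) and Abcg1 with any of the 6 arrays left out (highest adjusted p 0.0993). That of Scarb1 ended with any array left out except CS 1 (highest adjusted p 0.122) and that of Mvk ended with any array left out except air 2 (highest adjusted p 0.139).

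**Figure D5:**
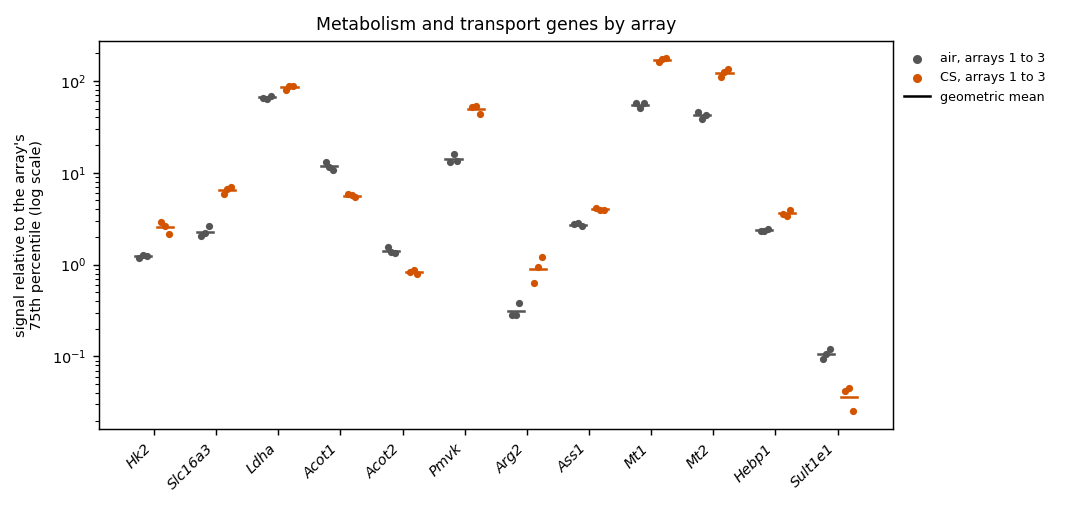
Points are single arrays (air in grey, CS in orange), placed by signal relative to the array's 75th percentile on a log scale, with a bar at each group's geometric mean. CS points lie above air points for Hk2, Slc16a3, Ldha, Pmvk, Arg2, Ass1, Mt1, Mt2 and Hebp1 and below them for Acot1, Acot2 and Sult1e1; heights of different genes are not comparable.

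Among amino acid genes, 3 that handle arginine are given first; they were not tested as a list. Arg2 encodes the mitochondrial arginase and gave 0.281, 0.28 and 0.383 in air and 0.636, 0.931 and 1.22 in CS (log2 change 1.53 ± 0.27, adjusted p 0.0168). Ass1, which regenerates arginine from citrulline, gave 2.74, 2.83 and 2.63 in air and 4.15, 3.92 and 3.97 in CS (log2 change 0.55 ± 0.06, adjusted p 0.00542). Slc7a2, which imports arginine, gave 0.327, 0.318 and 0.333 in air and 0.589, 0.537 and 0.561 in CS (log2 change 0.79 ± 0.11, adjusted p 0.00929). Among 32 amino acid transporter and related genes 7 rose and 2 fell (the falls numbered 0 without air 1, air 2 or CS 2 and 1 without air 3 or CS 3), and between 5 and 7 rose without each array. The neutral amino acid transporter genes Slc38a4 and Slc36a4 changed by 0.81 ± 0.13 and 0.48 ± 0.06, the histidine transporter gene Slc15a3 by 0.87 ± 0.14 and the glutamate transporter gene Slc1a3 by -0.39 ± 0.09. Among these, calls ended for Arg2 without air 1 or CS 2 (highest adjusted p 0.0679) and Slc1a3 with any array left out except CS 1 (highest adjusted p 0.117).

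Several genes of metal handling rose. The metallothioneins Mt1 and Mt2 bind zinc and cadmium, and Mt1 gave 56.8, 51.1 and 57.8 in air and 161, 175 and 176 in CS (log2 change 1.63 ± 0.11, adjusted p 0.00174). Mt2 gave 45.8, 38.9 and 42.1 in air and 110, 125 and 136 in CS (log2 change 1.55 ± 0.14, adjusted p 0.00315). Slc39a4, a zinc importer, gave 34.2, 35.9 and 38.1 in air and 63.4, 60.2 and 63.8 in CS (log2 change 0.79 ± 0.11, adjusted p 0.00937), and these 3 of 23 rose whichever array was left out. The 1 fall in the list became 0 whichever array was left out. Of 31 iron and haem genes 7 rose and 0 fell (median 0.21). Hebp1, a haem-binding protein gene, gave 2.33, 2.3 and 2.46 in air and 3.54, 3.4 and 3.89 in CS (log2 change 0.61 ± 0.08, adjusted p 0.00737), the rate-limiting haem synthesis gene Alas1 changed by 0.64 ± 0.16, the haem transporter genes Slc48a1 and Flvcr1 by 0.35 ± 0.08 and 0.39 ± 0.10 and the metalloreductase gene Steap2 by 0.69 ± 0.14. The other tested probe of Slc48a1 changed by 0.063 and was not called. The 7 rises numbered 1 without air 1, air 2, air 3 or CS 2 and 3 without CS 3. The iron exporter gene Slc40a1 changed by 1.22 ± 0.42, short of the threshold (adjusted p 0.101). The named calls ended for Alas1 with any array left out except CS 3 (highest adjusted p 0.139) and Slc48a1 and Steap2 with any array left out except CS 1 (highest adjusted p 0.11 and 0.0854). That of Flvcr1 ended with any of the 6 arrays left out (highest adjusted p 0.137).

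Clock genes and early response factors rose in part. In the circadian loop 4 of 18 rose and 0 fell, with changes from -1.33 to 1.19. The lowest change, in a clock activator gene, did not pass. The repressor gene Cry1 gave 0.136, 0.123 and 0.134 in air and 0.239, 0.239 and 0.294 in CS (log2 change 0.97 ± 0.12, adjusted p 0.00552). Bhlhe40, which represses clock-driven promoters, gave 1.23, 1.02 and 1.38 in air and 2.78, 2.8 and 2.12 in CS (log2 change 1.09 ± 0.15, adjusted p 0.00784). Per2 changed by 1.08 ± 0.20, while Nr1d1 gave -0.75 ± 0.27, short of the threshold (adjusted p 0.12). The other tested probe of Per2 changed by 0.51 and was not called. The time of day at which lungs were taken is not given in the sources used here. Among 34 early response factors 6 rose and 0 fell, and 32 of the 34 changes were positive (median 0.41). Maff, a small MAF factor gene, gave 2.46, 3.35 and 2.26 in air and 11.2, 8.04 and 6.27 in CS (log2 change 1.64 ± 0.31, adjusted p 0.0195). Ier3 gave 8.17, 6.45 and 6.4 in air and 15.6, 14.6 and 15.6 in CS (log2 change 1.13 ± 0.13, adjusted p 0.00491). The AP-1 subunit gene Fosl2 changed by 0.98 ± 0.20, while its other tested probe changed by 0.30 and was not called. Fos changed by 0.99 ± 0.28, short of the threshold (adjusted p 0.0579), and passed in the fit to 6 arrays alone (adjusted p 0.0443) and with the replicate block (0.0461). Clock rises numbered 2 without air 1, early response rises 1 without air 1 or air 3, 2 without CS 3 and 3 without CS 2. Calls ended for Per2 without air 1, CS 2 or CS 3 (highest adjusted p 0.0643) and Maff without air 1, air 3 or CS 2 (highest adjusted p 0.0739). That of Fosl2 ended with any array left out except air 2 (highest adjusted p 0.0899).

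Conjugating enzymes and cytochrome P450 genes outside the Cyp1 family rose in part, 6 of 33 and 4 of 34 members, with 2 and 1 lower. Gstp2 gave 64, 63.3 and 63.6 in air and 103, 110 and 106 in CS (log2 change 0.74 ± 0.08, adjusted p 0.00408). It is nearly identical to Gstp1, and the probes may share signal. Ugt1a6a, a glucuronidation gene, changed by 1.05 ± 0.21, Mgst1 by 0.47 ± 0.08 and the P450 genes Cyp2a4 and Cyp2a5, also near-identical copies, by 1.66 ± 0.33 and 1.53 ± 0.31. Cyp2j9, of a subfamily that oxidises arachidonic acid, gave 0.943, 0.821 and 0.809 in air and 0.539, 0.528 and 0.466 in CS (log2 change -0.75 ± 0.10, adjusted p 0.00798). Conjugation rises numbered 2 without air 1 or CS 2 and 3 without air 2, conjugation falls 1 without air 1, air 3, CS 2 or CS 3 and P450 rises 0 without air 1 or CS 2, 1 without air 3 or CS 3 and 2 without air 2. Calls were lost for Ugt1a6a with any array left out except air 3 or CS 3 (highest adjusted p 0.0821) and Mgst1 without air 1 or CS 2 (highest adjusted p 0.0565). That of Cyp2a4 ended without air 1, CS 2 or CS 3 (highest adjusted p 0.0833) and that of Cyp2a5 ended with any array left out except CS 1 (highest adjusted p 0.0853).

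Housekeeping machinery showed no call. Limma called 0 of 75 cytosolic ribosomal protein genes, 0 of 38 proteasome subunits and 0 of 20 heat shock genes, with 0, 3 and 1 at an unadjusted p under 0.05 and medians of 0.02, 0.01 and -0.05. Of 55 cell cycle and DNA replication genes 2 rose and 1 fell (3.64% and 1.82%, against 5.6% and 6.12% of all genes). Among 38 genes of the unfolded protein and integrated stress responses 0 rose and 2 fell (5.26%, against 6.12% of all genes). Of the 2, Nupr1, a stress-induced chromatin protein gene, gave 108, 86.4 and 117 in air and 29.2, 31 and 37.7 in CS (log2 change -1.67 ± 0.16, adjusted p 0.00327). The 2 cell cycle rises numbered 0 without air 1, air 3, CS 1, CS 2 or CS 3 and the 2 stress response falls 1 without air 1, air 2, CS 1 or CS 2. A further 13004 tested probes had no gene symbol, and 1111 of them were called, 510 higher and 601 lower; they are not described by family.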

How the data were processed

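Whole-lung RNA of 9 samples was hybridised to Agilent arrays in a single colour, and the 3 air and 3 CS arrays are compared here. The deposited files hold each array's scanner output in intensity units after background subtraction, for which the file headers name Feature Extraction 10.7.1.1 by Agilent. The authors' deposited matrix of the same arrays, whose values are on a ratio scale, was raised to a minimum of 0.001, taken as log2 and used as an alternative only. Outlier spots and control spots were left out, and spots of a probe were averaged. Intensity was divided by the array's 75th percentile and taken as log2. A probe was tested when every group had at least 2 values and at least 1 group was well above background on all its arrays with a value. Symbols came from matching accessions to RefSeq (GRCm38.p6), which named 32994 of 56605 probes (58.29%). Limma 3.58.1 (R 4.3.3; lmFit and eBayes) was fitted to all 9 arrays, with Benjamini-Hochberg adjustment. Tested on simulated data of 36982 probes, the fit recovered 52.2%, 70.1% and 95.5% of 1.5-, 2- and 4-fold changes with 10 false calls. The simulated noise was independent between probes and held no effect of array row or of single arrays. The number of false calls in the real data therefore cannot be read from it. Where a probe was not well above background in a whole group, the fold is a lower bound, taken against the mean over its arrays of the lowest signal well above background or the probe's own signal, whichever was higher.

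The gene families and named genes were chosen with earlier results of these data known. Genes are named by rule: the 30 largest changes in each direction, up to 8 called genes of smallest p per family with preset members, and lung markers. The number of arrays limits the precision. Other background corrections, scalings, filters, models, probe summaries, thresholds and left-out arrays were tried. Some genes that the rule takes are not reported here.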

Additional observations from a re-analysis of the deposited data

How the results depend on the processing

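In every setting tried, 0 genes were called in the direction opposite to the one reported. Against 3840 probes called (1725 higher and 2115 lower), dropping the filter on dim probes gave 1541 (778 and 763), array row as a covariate 309 (129 and 180), a minimum of 2-fold 575 (406 and 169) and an adjusted p under 0.1 gave 7098 (3088 and 4010). The fit to the 6 air and CS arrays alone gave 2722, with 1370 lower. With 1 array left out, 731 to 2918 probes were called, 367 to 1460 higher and 364 to 1458 lower. Normexp background correction, quantile normalization, median centring, the deposited matrix and a filter asking for signal on all 6 arrays gave 3279 to 4144, and an intensity trend with robust shrinkage gave 4643. Averaging all probes of a gene gave 1041 genes higher and 1251 lower. Of the 194 genes named as called, 76 kept the call whichever array was left out and 156 kept it in the fit to 6 arrays alone.

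Deviations from the group means, compared between air and CS arrays of the same replicate number, correlated at -0.079, -0.041 and -0.062 for numbers 1, 2 and 3. Arrays of unlike number were not compared in this way, so whether the numbers pair the samples was not settled. With the replicate block 3249 probes were called (1518 higher and 1731 lower). The main limits are 3 arrays per group, calls that rest on single arrays, and array row, which separates air 1 and air 2 from the other 4 arrays.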
